A study of Homo sapiens with 6 samples.

Results

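The SR proteins and the heterogeneous nuclear ribonucleoproteins (hnRNPs) are the main sequence-reading regulators of splice site choice. The genes described here are the protein-coding rows of the count table whose symbols begin with SRSF and a number or with HNRNP, or are TRA2A or TRA2B. They are 36 of the 30327 rows, namely 12 SRSF genes, 2 TRA2 genes and 22 rows with HNRNP symbols. Poly(A) RNA was sequenced from SK-BR-3, an established breast cancer line that overexpresses the receptor HER2, in which GRB2 is an adaptor of receptor tyrosine kinase signalling. The study reported changed alternative splicing in this model, so the question here is whether the transcripts of the splicing regulators themselves differed. The 6 libraries came from cells given a nontargeting control siRNA (si_NC, 3 libraries) or an siRNA against GRB2 (si_GRB2, 3 libraries), all from the same cell line with no other treatment named. The titles of the treated libraries and their genotype label name overexpression of GRB2, whereas their descriptions name si_GRB2, and every direction below is that of the libraries labelled si_GRB2. The labels do not say whether the libraries of a group came from separate cultures, so the p-values measure only the spread between these samples, which may be technical.

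SR proteins carry RNA recognition motifs followed by a tail rich in arginine and serine. They bind exonic enhancers and help the spliceosome to recognise the exon. Kinases of the SRPK and CLK families phosphorylate the tail, and transportin-SR (TNPO3) carries the proteins into the nucleus. Most hnRNPs bind exonic or intronic silencers and counteract SR proteins at many sites, although several also activate exons. Many genes of both families hold a so-called poison exon, which brings a premature stop codon into the mRNA and sends it to nonsense-mediated decay (NMD), and by splicing it in the proteins limit their own production.

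GRB2 had levels of 123.9, 129.5 and 125.7 CPM (reads relative to the TMM-scaled library size) with si_NC and of 27.8, 28.1 and 29.6 CPM with si_GRB2. It was lower in every library labelled si_GRB2, with a log2 fold change of −2.15 (SE 0.04, adjusted p = 3.87e-15), which goes against the word overexpression in the titles. Unless another test is named, each adjusted p comes from edgeR's quasi-likelihood test over all genes, and SE is the standard error of the log2 fold change. The depth on genes ranged from 24810378 to 28532480 reads, of which the 36 genes held 0.981%, 0.995% and 0.978% in si_NC and 0.937%, 0.961% and 0.976% in si_GRB2. Of 11 luminal epithelial markers, 10 were tested, 6 were lower and 1 was higher in si_GRB2, against 15.5% and 15.2% of all genes tested. Their summed level was 19900 to 20390 CPM in si_NC and 16700 to 17400 CPM in si_GRB2. CDH1, 1 of the 11, lay near 0 in both groups (means of 0.0606 and 0.0518 CPM). Fibroblast markers summed to 4.1 to 6.42 CPM in si_NC and 4.61 to 5.25 CPM in si_GRB2, and leukocyte markers to 2.35 to 3.35 and 1.99 to 2.19 CPM. Endothelial markers summed to 28.9 to 30.9 CPM in si_NC and 17.5 to 21.4 CPM in si_GRB2, nearly all of it CDH5. The part of these shifts in the results below was not tested.

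The SR and hnRNP transcripts that differed were mostly slightly lower in si_GRB2, with SRSF1 and TRA2B lowest and HNRNPA0 and HNRNPDL higher. All 36 genes had enough reads for the test. By edgeR's quasi-likelihood test, 18 of the 36 (50%) had an adjusted p under 0.05, compared with 30.6% of the 15801 genes tested. Of these 18, 16 were lower and 2 were higher in si_GRB2, while over all genes tested 15.5% were lower and 15.2% higher. Well-expressed genes were called more often in both directions. Among the 5839 genes with a mean of at least 30 CPM, 48.5% were called, 24.1% lower and 24.4% higher. Of the 34 SR, TRA2 and hnRNP genes at that level, 52.9% were called, 47.1% lower and 5.88% higher, so the total lay near that of other well-expressed genes. The median log2 fold change was −0.08 over the 36 genes and 0.00 over all genes tested, and 30 of the 36 values were below 0. All 12 SRSF genes lay below 0 (SRSF8 and SRSF11 lay above 0 with library totals), with a median of −0.10, and 6 of them were called. Of the 22 hnRNP rows, 17 lay below 0 with a median of −0.07, and 9 were called lower and 2 higher. When only library totals were used for scaling, 25 of the 36 values lay below 0. Then 14 of the 36 genes were called, compared with 32.8% of all genes in that fit. Of these 14, 10 were lower and 4 higher, so that 71.4% of the calls were lower against 88.9% with TMM factors. The median log2 fold change of all genes was then 0.0521. The median of the 36 genes minus that of all genes was −0.0792, against −0.0795 with TMM factors. The calls lost with library totals were those of SRSF10 (edgeR adjusted p = 0.114), SRSF7 (0.111), HNRNPL (0.0637), HNRNPA1 (0.452), SRSF2 (0.462) and HNRNPA3 (0.506), while TRA2A and HNRNPH2 were then called higher. In the authors' FPKM, tested with limma on log2(FPKM + 1), 2 of the 36 genes were called, SRSF1 lower and HNRNPA0 higher, compared with 4.68% of all genes. In bulk RNA, a lower level in every cell and fewer cells that express a gene cannot be told apart.

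**Figure D1:**
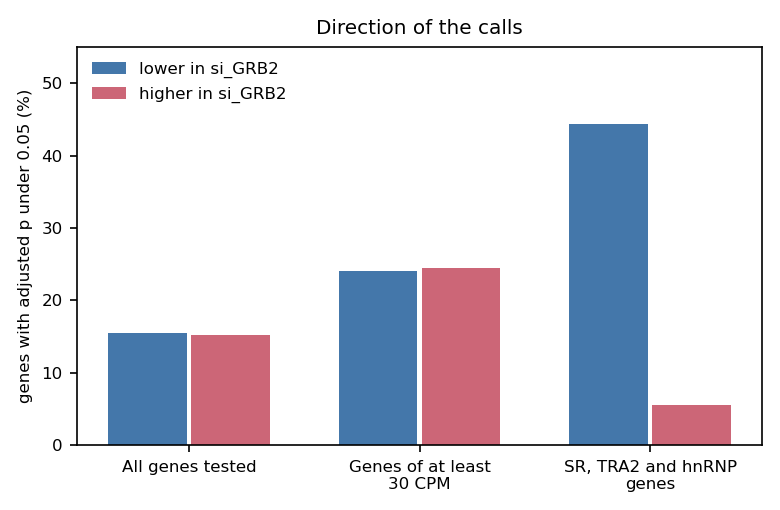
Share of genes with an adjusted p under 0.05 (percent, edgeR's quasi-likelihood test), lower (blue) or higher (red) in si_GRB2, for all genes tested, genes with a mean of at least 30 CPM, and the 36 SR, TRA2 and hnRNP genes. The bars for the 36 genes are unequal, at 44.4% lower and 5.56% higher, while those for all genes are about equal, at 15.5% and 15.2%.

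The changes were small. No gene of the 36 passed the limits of the study's methods on the fold change (1.5-fold), taken with an adjusted p under 0.01, by edgeR (0 of 36) or by DESeq2 (0 of 36), whereas 2.52% of all genes tested did so by edgeR (1.69% lower and 0.829% higher). An unadjusted p under 0.05 was found for 25 of the 36 genes by edgeR (69.4%), compared with 39.4% of all genes tested and 57.9% of those with at least 30 CPM. For 35 of the 36 genes the whole 95% interval of the log2 fold change lay inside the 1.5-fold limit, which is 0.585 on the log2 scale, with the lowest bound at −0.35 and the highest at 0.31. The exception was SRSF12, a gene with 56 reads over all libraries. Its interval ran from −1.49 to 0.38, so that at this depth changes past 1.5-fold lay within its interval. The CPM of both groups did not overlap in 24 of the 36 genes (66.7%), 22 with all si_GRB2 libraries lower and 2 with all higher. Over all genes tested the share was 42.3% (21.2% lower and 21.1% higher). It was not computed for genes with at least 30 CPM, which were called more often in the test above.

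**Figure D2:**
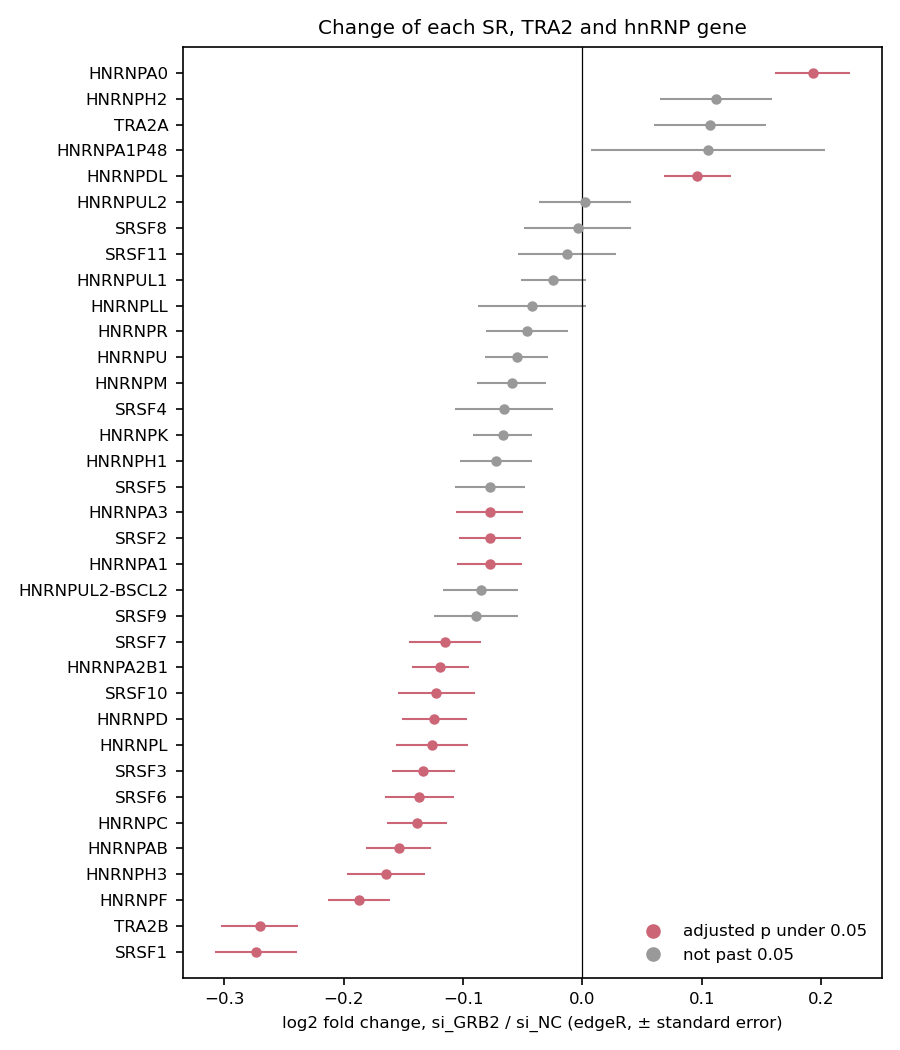
Log2 fold change of si_GRB2 over si_NC (x axis, edgeR, point and bar of 1 standard error) for 35 of the 36 genes, with those of adjusted p under 0.05 in red and the others in grey. SRSF12, at −0.55 with an SE of 0.44, is left out to keep the scale. SRSF1 and TRA2B lie farthest to the left at −0.27, and HNRNPA0 farthest to the right at 0.19.

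SRSF1 and TRA2B fell the most. SRSF1 (ENSG00000136450.13, minus strand of chromosome 17 from 58000919 to 58007346, GRCh38) encodes the founding SR protein, which binds purine-rich exonic enhancers. It had 94.4, 95.9 and 91.9 CPM in si_NC and 76.5, 78.6 and 78.3 CPM in si_GRB2. All si_GRB2 libraries were lower, and the gap between the groups was wider than the spread within either. The means were 94.0 ± 2.02 and 77.8 ± 1.13 CPM (SD, n = 3 each), a fall of 17.3%. The log2 fold change was −0.27 (SE 0.03, edgeR adjusted p = 1.74e-05). On the same strand, SRSF1 overlaps the row RP11-159D12.5, whose reads amounted to 111% of its own, so that the split of reads between both rows is uncertain. That row had a log2 fold change of −0.26 (edgeR adjusted p = 2.18e-05). With the reads of both rows added, the values were 200.1, 200.3 and 193.4 CPM in si_NC and 163.2, 166.0 and 165.2 CPM in si_GRB2. The log2 fold change was then −0.26 (SE 0.03, edgeR adjusted p = 3.33e-06), close to the value of SRSF1 alone.

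TRA2B (ENSG00000136527.18, minus strand of chromosome 3 from 185914558 to 185938103) encodes an SR-like protein that activates exons with GA-rich enhancers. It had 178.8, 183.2 and 181.4 CPM in si_NC and 144.2, 150.7 and 155.7 CPM in si_GRB2. Again the groups did not overlap, and the means were 181.1 ± 2.22 and 150.2 ± 5.73 CPM (SD, n = 3 each), a fall of 17.1%. The log2 fold change was −0.27 (SE 0.03, edgeR adjusted p = 9.22e-06). Its paralog TRA2A, which binds similar sites, had 68.7, 70.0 and 68.5 CPM in si_NC and 69.4, 73.3 and 80.5 CPM in si_GRB2. The groups of TRA2A overlapped, and its log2 fold change of 0.11 did not pass the test (edgeR adjusted p = 0.1).

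Transcripts of SRSF and TRA2 genes can be productive or carry a poison exon, and the gene counts add both kinds together. In GENCODE 44, 29 of the 36 genes (80.6%) have at least 1 transcript annotated to NMD, against 47.8% of the 12773 protein-coding genes tested, and 12 (33.3%) have an exon found only in such transcripts, against 22.2%. The sequences below run from the start of such an exon to the annotated stop codon inside it, which is in capitals. They are written 5′ to 3′ on the strand of the gene, read from GRCh38 with GENCODE 44. The first base shown need not be the first base of a codon, so the reading frame is not marked. The sequences are from the longest NMD-only exon with its stop codon inside, for genes that were lower in si_GRB2. The exon of TRA2B has 276 bases, of which chr3:185931772-185931852 (minus strand) is shown. That of SRSF6 has 268 bases, with chr20:43459153-43459304 (plus strand) shown, and that of SRSF3 has 456 bases, with chr6:36599821-36599854 (plus strand) shown. In SRSF7 the exon has 449 bases and chr2:38749319-38749346 (minus strand) is shown, and in HNRNPL it has 70 bases and chr19:38841624-38841682 (minus strand) is shown.
TRA2B: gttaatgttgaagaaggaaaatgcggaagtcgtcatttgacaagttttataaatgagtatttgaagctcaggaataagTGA
SRSF6: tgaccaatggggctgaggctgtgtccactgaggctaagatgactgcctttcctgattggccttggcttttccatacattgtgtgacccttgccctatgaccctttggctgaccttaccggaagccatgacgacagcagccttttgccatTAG
SRSF3: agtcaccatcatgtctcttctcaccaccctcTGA
SRSF7: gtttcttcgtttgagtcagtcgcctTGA
HNRNPL: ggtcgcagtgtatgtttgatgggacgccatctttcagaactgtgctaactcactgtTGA
The number of bases shown, the stop codon included, runs from 28 in SRSF7 to 152 in SRSF6. Whether the share of mRNA with these exons differed between the groups was not analysed here, because the values are sums over all transcripts of a gene.

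**Figure D3:**
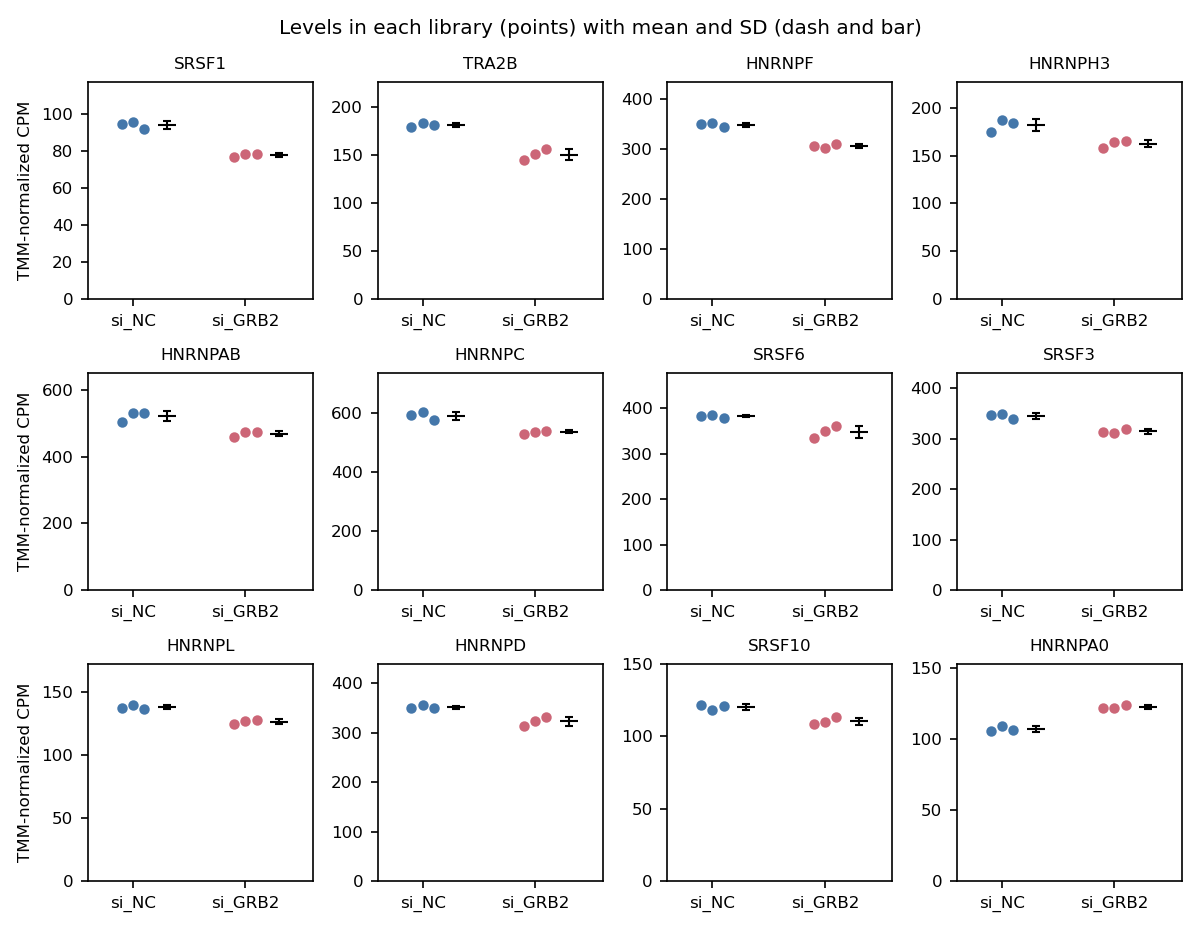
TMM-normalized CPM (y axis, starting at 0) of the 12 called genes with the largest changes in each of the 3 si_NC (blue) and 3 si_GRB2 (red) libraries, with the mean and SD in black. The si_GRB2 points lie below the si_NC points in 11 panels and above them for HNRNPA0, and the steps are small against the level of each gene.

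Of the other SRSF genes, SRSF6, SRSF3, SRSF10, SRSF7 and SRSF2 also fell. SRSF6 (ENSG00000124193.16, plus strand of chromosome 20 from 43457893 to 43466046) is close in sequence to SRSF4 and SRSF5 and has, like SRSF1, a second and atypical RNA recognition motif. It had 383.5, 384.8 and 379.1 CPM in si_NC and 334.6, 348.5 and 360.6 CPM in si_GRB2, without overlap and with a wider spread in si_GRB2. Its log2 fold change was −0.14 (SE 0.03, edgeR adjusted p = 0.00177). Its relatives were not called, with log2 fold changes of −0.08 for SRSF5 (adjusted p = 0.0559) and −0.07 for SRSF4 (adjusted p = 0.258) in the same edgeR test. SRSF3 (ENSG00000112081.17, plus strand of chromosome 6 from 36594353 to 36605600), the smallest SR protein and an adaptor for mRNA export, had 346.7, 350.1 and 338.8 CPM in si_NC and 313.1, 311.5 and 319.7 CPM in si_GRB2. All si_GRB2 libraries were lower, at a log2 fold change of −0.13 (SE 0.03, edgeR adjusted p = 0.000974). SRSF10 (ENSG00000188529.15, minus strand of chromosome 1 from 23964347 to 23980927), which acts as a repressor of splicing once it is dephosphorylated, had 121.7, 117.8 and 120.6 CPM in si_NC and 108.2, 109.5 and 113.1 CPM in si_GRB2. The groups lay apart, with a log2 fold change of −0.12 (edgeR adjusted p = 0.0087).

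SRSF7, which shares its export role with SRSF3 and carries a zinc knuckle, had a log2 fold change of −0.11 (edgeR adjusted p = 0.00803). SRSF2, a regulator of splicing and of transcriptional pausing, had the smallest of the called falls among SRSF genes, at −0.08 (edgeR adjusted p = 0.0322), and its call was lost when si_GRB2 replicate 1, si_GRB2 replicate 2 or si_NC replicate 2 was left out. Reads of MFSD11, on the other strand, amounted to 13.2% of those of SRSF2. The remaining SRSF genes were not called. SRSF9, the closest relative of SRSF1, had a log2 fold change of −0.09 (edgeR adjusted p = 0.0662) although its groups did not overlap. GATC on the other strand had 43.3% as many reads as SRSF9, and NRAV on the same strand had 13.8%. NRAV had a log2 fold change of 0.16 (edgeR adjusted p = 0.132). SRSF11 had 154.0, 153.1 and 153.3 CPM in si_NC and 140.6, 153.4 and 162.3 CPM in si_GRB2, so that the spread in si_GRB2 covered the si_NC values. SRSF8, a retrocopy of SRSF2, had a log2 fold change of −0.0041. SRSF12 was barely expressed, with 0.25, 0.432 and 0.57 CPM in si_NC and 0.278, 0.182 and 0.395 CPM in si_GRB2.

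HNRNPA0 was the gene that rose the most, while HNRNPA1, HNRNPA2B1 and HNRNPA3 of its A/B family fell. The A/B proteins bind UAGG-like silencers and promote exon skipping. HNRNPA0 (ENSG00000177733.7, minus strand of chromosome 5 from 137745651 to 137754363), a member known as a binder of AU-rich elements, had 105.7, 109.6 and 106.6 CPM in si_NC and 122.2, 121.8 and 123.9 CPM in si_GRB2. The si_GRB2 libraries were all higher, and the means were 107.3 ± 2.04 and 122.6 ± 1.15 CPM (SD, n = 3 each). The log2 fold change was 0.19 (SE 0.03, edgeR adjusted p = 0.000206), a rise of 14.3%. HNRNPA2B1 is one of the genes whose splicing the study examined. HNRNPA2B1 (ENSG00000122566.22, minus strand of chromosome 7 from 26171151 to 26201529) had 1233, 1275 and 1249 CPM in si_NC and 1125, 1156 and 1179 CPM in si_GRB2. It fell with a log2 fold change of −0.12 (SE 0.02, edgeR adjusted p = 0.00112). CBX3 overlaps it on the opposite strand, with reads equal to 44.8% of its own and a log2 fold change of −0.13. The sources used here do not say whether the counting used strand, so the reads of both genes may be mixed. HNRNPA1 (ENSG00000135486.19, plus strand of chromosome 12 from 54280193 to 54287088), the best studied silencer-binding hnRNP, had 1049, 1130.4 and 1062 CPM in si_NC and 1015, 1020.2 and 1037 CPM in si_GRB2. The groups did not overlap, but the spread in si_NC was wide, and the log2 fold change of −0.08 was close to the limit of the test (edgeR adjusted p = 0.0392). HNRNPA3 was similar, at −0.08 (edgeR adjusted p = 0.0468), and NFE2L2 on the other strand had 25.9% as many reads. The calls of HNRNPA1 and of HNRNPA3 were each lost in 4 of 6 fits that left out 1 library, namely without si_NC replicate 2 and without each of the si_GRB2 replicates. The row HNRNPA1P48, a copy of HNRNPA1 that GENCODE 44 names HNRNPA1L3, had a log2 fold change of 0.11 (edgeR adjusted p = 0.473) and may share reads with HNRNPA1. The table also lists 31 pseudogene rows of HNRNPA1, whose reads came to 1.52% of its own.

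HNRNPAB, HNRNPD and HNRNPDL form a family of proteins that bind AU-rich and related elements in mRNA. HNRNPAB (ENSG00000197451.12, plus strand of chromosome 5 from 178204533 to 178211163) had 504.7, 531.2 and 531.3 CPM in si_NC and 460.0, 475.5 and 473.1 CPM in si_GRB2, and all si_GRB2 libraries were lower. It fell with a log2 fold change of −0.15 (SE 0.03, edgeR adjusted p = 0.000409). HNRNPD (ENSG00000138668.19, minus strand of chromosome 4 from 82352498 to 82374503), also known as AUF1, promotes the decay of mRNAs with AU-rich elements. Its level was 350.0, 355.1 and 349.7 CPM in si_NC and 313.6, 322.7 and 331.4 CPM in si_GRB2, a fall with a log2 fold change of −0.12 (edgeR adjusted p = 0.0023). Its neighbour on the same strand, HNRNPDL (ENSG00000152795.18, minus strand of chromosome 4 from 82422565 to 82430462), moved the other way. HNRNPDL had 312.1, 309.5 and 307.9 CPM in si_NC and 323.2, 327.0 and 343.4 CPM in si_GRB2, higher in every si_GRB2 library. The log2 fold change was 0.10 (edgeR adjusted p = 0.016), and the call was lost in the fits without si_GRB2 replicate 3 or without either of si_NC replicates 2 and 3.

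The F/H proteins read runs of G through modified RNA recognition motifs. HNRNPF (ENSG00000169813.17, minus strand of chromosome 10 from 43385617 to 43409186) had 348.9, 350.8 and 342.4 CPM in si_NC and 305.3, 301.3 and 308.9 CPM in si_GRB2. All si_GRB2 libraries were lower with a narrow spread, and the log2 fold change was −0.19 (SE 0.03, edgeR adjusted p = 3.89e-05). HNRNPH3 (ENSG00000096746.18, plus strand of chromosome 10 from 68331174 to 68343193) had 174.7, 187.6 and 183.6 CPM in si_NC and 158.1, 163.8 and 165.0 CPM in si_GRB2, also without overlap. It fell with a log2 fold change of −0.16 (edgeR adjusted p = 0.00109), and RUFY2 on the other strand had 8.60% as many reads. HNRNPH1 and HNRNPH2, which are closely similar proteins, were not called. HNRNPH1 had a log2 fold change of −0.07 (adjusted p = 0.0837) and HNRNPH2 of 0.11 (adjusted p = 0.084) in edgeR's quasi-likelihood test.

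HNRNPC (ENSG00000092199.18, minus strand of chromosome 14 from 21209136 to 21269494), which binds U-runs and keeps cryptic exons such as those of Alu elements out of mRNA, had 592.0, 602.8 and 574.8 CPM in si_NC and 530.3, 536.6 and 540.6 CPM in si_GRB2. It was lower in all si_GRB2 libraries, with a log2 fold change of −0.14 (SE 0.03, edgeR adjusted p = 0.000514). HNRNPL (ENSG00000104824.18, minus strand of chromosome 19 from 38836370 to 38852347) binds CA repeats and silences or activates exons according to where it binds. It had 138.0, 140.1 and 137.2 CPM in si_NC and 124.9, 127.1 and 128.4 CPM in si_GRB2, without overlap. Its log2 fold change was −0.13 (edgeR adjusted p = 0.00417). AC104534.3 overlaps HNRNPL on the same strand with reads equal to 79.8% of its own, and counted together they had a log2 fold change of −0.15 (edgeR adjusted p = 0.000554). HNRNPK (ENSG00000165119.21, minus strand of chromosome 9 from 83968083 to 83980631), which binds C-rich RNA through KH domains, was just outside the limit. Its level was 615.6, 622.1 and 596.1 CPM in si_NC and 578.3, 582.5 and 590.2 CPM in si_GRB2, and although the groups did not overlap, the log2 fold change of −0.07 did not pass the test (edgeR adjusted p = 0.0519).

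The U family was not called. HNRNPU, a nuclear scaffold protein that binds both RNA and chromatin, had a log2 fold change of −0.06 (edgeR adjusted p = 0.128). COX20 on the other strand had 10.1% as many reads as HNRNPU. HNRNPUL1 and HNRNPUL2 had log2 fold changes of −0.02 and 0.0020. The readthrough row HNRNPUL2-BSCL2, which shares exons with HNRNPUL2 and had reads equal to 133% of those of HNRNPUL2, had a log2 fold change of −0.09 (edgeR adjusted p = 0.0515). Counted together, both rows gave −0.05 (edgeR adjusted p = 0.266). HNRNPM, HNRNPR and HNRNPLL, the last a lymphocyte splicing factor at low level here, had log2 fold changes of −0.06, −0.05 and −0.04, and none of these passed the test.

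Within both groups, single libraries stood low or high over many of these genes. Among the 34 genes with a mean of at least 30 CPM, si_GRB2 replicate 1 was the lowest of its group for 24, compared with 40.2% of all genes at that level, and its median deviation from the group mean was −0.03 on the log2 scale. For si_GRB2 replicate 3 the same count was 2 of 34 (32.2% of all genes). In si_NC, replicate 2 was the lowest for 3 of 34 (26.9% of all genes) and replicates 1 and 3 for 14 and 17, with a median deviation of 0.02 in replicate 2. TRA2A and SRSF11 varied most within si_GRB2 among these 34 genes, with coefficients of variation of 7.57% and 7.17%, against 1.2% and 0.315% in si_NC. Without si_GRB2 replicate 1, 16 of the 36 genes were called, 13 lower and 3 higher, compared with 26.5% of all genes in that fit. Over the 6 fits that left out 1 library, 14 of the 18 called genes were called every time. Some genes that were not called in the full comparison passed in single fits, namely HNRNPK, HNRNPU and SRSF9 without si_NC replicate 3, SRSF5 without si_NC replicate 1 or si_GRB2 replicate 3, HNRNPUL2-BSCL2 without si_NC replicate 2 or si_GRB2 replicate 3, HNRNPH1 without si_GRB2 replicate 2, and TRA2A without si_GRB2 replicate 1. SRSF1 and HNRNPA0 were also called under every other setting tried, 16 of 16 fits each.

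Ratios of relatives within each library, which do not depend on scaling, shifted for several pairs. Across 26 pairs of relatives, an exact permutation test of 3 libraries against 3 cannot give a two-sided p below 0.1, so no pair could pass 0.05, and the adjusted p over the 26 pairs was at least 0.173. The log2 ratio of TRA2A to TRA2B was −1.38, −1.39 and −1.40 in si_NC and −1.06, −1.04 and −0.95 in si_GRB2. It shifted by 0.38 without overlap (exact permutation p = 0.1, the smallest possible). HNRNPA0 to HNRNPA2B1 shifted by 0.31, from −3.54, −3.54 and −3.55 to −3.20, −3.25 and −3.25. HNRNPF to HNRNPH2 shifted by −0.30, from 2.67, 2.58 and 2.67 to 2.38, 2.37 and 2.28. In each of these pairs 1 gene was called and its relative was not, or was called the other way. HNRNPD to HNRNPDL shifted by −0.22, from 0.17, 0.20 and 0.18 to −0.04, −0.02 and −0.05. SRSF1 to SRSF9 shifted by −0.19, from −0.15, −0.09 and −0.09 to −0.33, −0.26 and −0.30. SRSF3 to SRSF7, by contrast, stayed within the spread of the libraries, with a difference of −0.02 and overlapping groups (exact permutation p = 0.4, adjusted over 26 pairs 0.473).

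**Figure D4:**
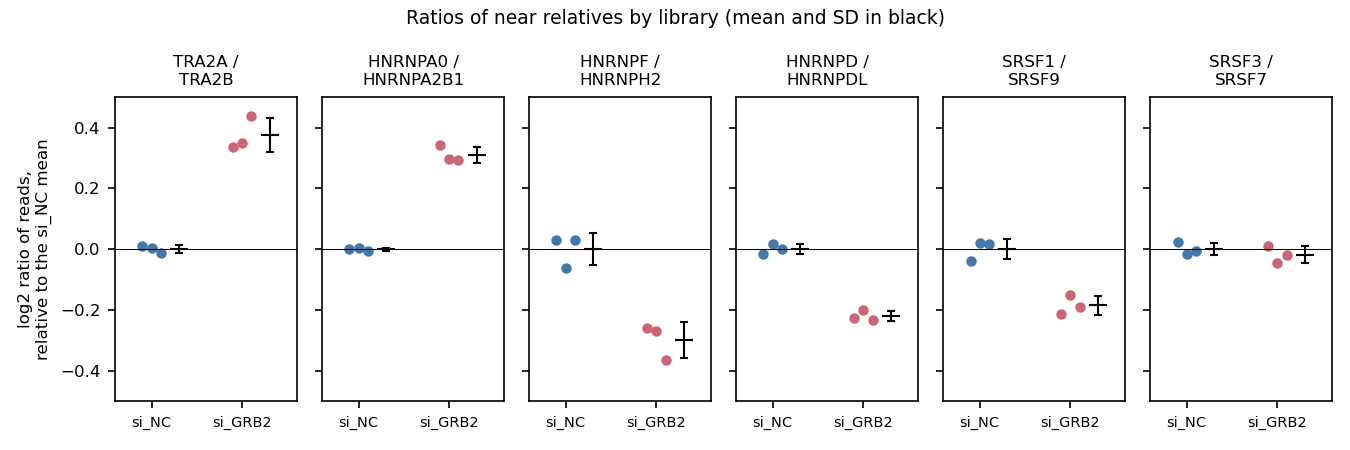
Log2 ratio of the reads of 2 relatives in each library (y axis, relative to the si_NC mean of the pair), for 3 si_NC (blue) and 3 si_GRB2 (red) libraries, with mean and SD in black. TRA2A to TRA2B lies 0.38 higher in si_GRB2 and HNRNPD to HNRNPDL 0.22 lower, both without overlap, while the groups of SRSF3 to SRSF7 overlap.

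Per length, the most abundant of these transcripts were hnRNPs. In the authors' FPKM, HNRNPAB had a mean of 198.2 ± 12 in si_NC and 183.6 ± 8.29 in si_GRB2 (SD, n = 3 each). HNRNPA1 came next with 129.6 ± 6.6 and 126.6 ± 4.38 FPKM, and HNRNPK followed with 96.3 ± 1.95 and 94.9 ± 3.31 FPKM (SD, n = 3 each). The ranges of these 3 over the libraries did not overlap. SRSF2, the SR gene of highest FPKM at 90.7 ± 3.62 and 88.6 ± 3.78, came next, before HNRNPF and HNRNPA2B1. From HNRNPK to HNRNPA2B1 the FPKM ranges of neighbours over all libraries overlapped. Within each of the 6 libraries the order in FPKM was HNRNPK, SRSF2, HNRNPF and HNRNPA2B1. By reads the order differed, with means over the 6 libraries of 1203 CPM for HNRNPA2B1, 597 for HNRNPK, 327 for SRSF2 and 326 for HNRNPF. SRSF6 and SRSF3, at means of 365 and 330 CPM, then lay above SRSF2. SRSF1 and TRA2B, the genes that fell the most, were of low rank in FPKM, with 13.1 ± 0.301 and 11.1 ± 0.465 FPKM in si_NC. By reads, their means over the 6 libraries were 85.9 and 165.7 CPM. Counted together with the overlapping row on its strand, SRSF1 had 193.4 to 200.3 CPM in si_NC. The annotated exons of SRSF1 cover 5781 bases and those of TRA2B 13084 bases. The part of exon length and of read assignment in their low FPKM rank was not tested. At the lower end, HNRNPLL had a mean of 4.54, HNRNPA1P48 of 3.95 and SRSF12 of 0.0633 FPKM over the 6 libraries. The share of all FPKM held by SRSF and TRA2 genes was 0.128% to 0.129% in si_NC and 0.124% to 0.132% in si_GRB2. The hnRNP rows held 0.361% to 0.365% and 0.355% to 0.373%, so in this unit the totals of both families overlapped between the groups, while their joint share of reads, given above, did not.

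**Figure D5:**
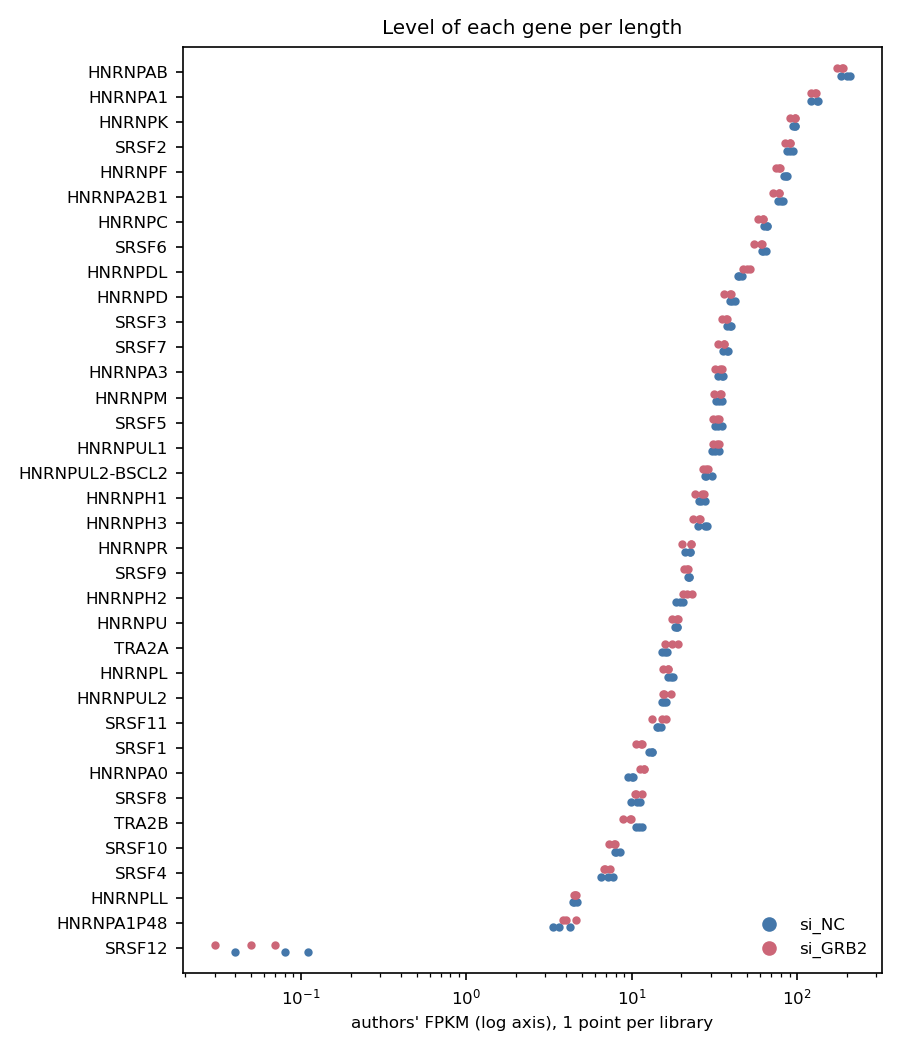
The authors' FPKM of each of the 36 genes (x axis, log scale) in every si_NC (blue) and si_GRB2 (red) library, 1 point per library, ordered by mean. Levels run from HNRNPAB, at a mean of 190.9 FPKM, down to SRSF12 at 0.0633 FPKM, and for most genes the distance between the groups is small against the distances between genes.

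The other hnRNP genes, which carry other symbols, also contained mostly falls among their calls. Of 11 listed, 10 were tested, and 6 were lower and 0 higher in the same test, against 15.5% of all genes and 24.1% of those with at least 30 CPM lower, with a median log2 fold change of −0.13. PTBP3, a relative of the polypyrimidine tract binder PTBP1, had the largest of these at −0.43 (edgeR adjusted p = 1.99e-07), followed by the poly(C)-binding protein PCBP1 at −0.19 (edgeR adjusted p = 2.08e-05). PTBP1 itself had a log2 fold change of −0.02 (edgeR adjusted p = 0.732).

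Among 15 genes that phosphorylate, dephosphorylate or import SR proteins, 3 were lower and 2 higher. In either direction, 30.6% of all genes and 48.5% of those with at least 30 CPM were called. TNPO3, the importer of phosphorylated SR proteins, had 34.3, 33.8 and 35.9 CPM in si_NC and 25.9, 25.7 and 25.1 CPM in si_GRB2. It fell with the largest log2 fold change of this list, −0.44 (SE 0.05, edgeR adjusted p = 3.02e-06). The kinases SRPK1 and SRPK2 moved in opposite directions. SRPK1 had 122.0, 124.5 and 122.4 CPM in si_NC and 115.0, 112.6 and 114.1 CPM in si_GRB2 (log2 fold change −0.11, edgeR adjusted p = 0.0114). SRPK2 had 52.3, 55.1 and 51.0 CPM in si_NC and 58.3, 64.1 and 61.9 CPM in si_GRB2 (log2 fold change 0.22, edgeR adjusted p = 0.00139). The phosphatase subunit PPP1CA had a log2 fold change of −0.14, and CLK1, CLK2, CLK3 and CLK4 were not called, at −0.07, −0.10, 0.09 and 0.06.

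Of 18 SR-related proteins tested, 3 were lower (LUC7L2 at −0.18, RBM23 at −0.16 and SRRM1 at −0.13) and 0 were higher. Of all genes, 15.5% were lower and 15.2% higher, and of those with at least 30 CPM, 24.1% and 24.4%. Of 30 other splicing regulators tested, 6 were lower and 4 higher, against 30.6% of all genes and 48.5% of those with at least 30 CPM called. MBNL1, a regulator of developmental splicing, rose with a log2 fold change of 0.37. MBNL3, at a low mean of 6.95 CPM, fell with −0.31, and the U-rich binder TIA1 with −0.28. MBNL2, at a mean of 69.2 CPM, also fell with −0.28 (edgeR adjusted p = 4.53e-05). Of 16 factors of nonsense-mediated decay, the pathway that degrades the poison exon transcripts, 5 were lower and 2 higher, against 30.6% of all genes and 48.5% of those with at least 30 CPM called in either direction. SMG9, a regulator of the NMD kinase SMG1, had a log2 fold change of −0.36, UPF3B of −0.32 and CASC3 of 0.26. No gene of these 4 lists and of the hnRNPs with other symbols passed the 1.5-fold limit with an adjusted p under 0.01.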

How the data were processed

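Poly(A) RNA of 3 si_NC and 3 si_GRB2 libraries was sequenced. Trimming used FASTX-Toolkit, alignment used HISAT2 on GRCh38, and only reads with 1 mapped position were counted. The values the authors deposited are the raw count for each gene and its FPKM. The counting tool, the annotation release and whether counting used strand are not given in the sources used here, although the library kit keeps strand. The FPKM table was used for levels per length and as an alternative, and columns of other samples numbered 0.

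Counts were tested with edgeR 4.0.16 (R 4.3.3, TMM factors, filterByExpr, glmQLFit and glmQLFTest) on the whole table, 3 libraries against 3 without covariates, and p-values were adjusted by Benjamini-Hochberg over 15801 genes. Standard errors were derived from each log2 fold change and its F statistic. The code was tested on simulated data. Ratios of relatives were tested by exact two-sided permutation over libraries. Alternatives were DESeq2 1.42.0, other scalings and filters, a replicate block, limma 3.58.1 on log2-transformed FPKM (pseudocounts 1 and 0.1), and each library left out. Of the 30327 gene identifiers, 99.7% were found in GENCODE 44 (83.4% with the same version), which gave positions, transcripts and sequences. Depth was 24810378 to 28532480 reads per library, and the common coefficient of biological variation was 3.75%.

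The members, the families and the other lists were chosen with earlier results of these data known. Values per library were given for the 12 called genes of largest change, HNRNPA2B1 and the 3 genes of highest FPKM, and for other members chosen after their values were seen (SRSF11, SRSF12, TRA2A, HNRNPDL and genes named for overlap). From each other list the 3 called genes of largest change were named, with PTBP1, SRPK1, MBNL2 and the CLK genes added afterwards. The values of 1 gene that this rule names are not reported here. Splicing and fRIP-seq were not analysed here. Plots used Python 3.11.15 with matplotlib 3.10.9.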

Additional observations from a re-analysis of the deposited data

How the results depend on the processing

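The 18 called genes kept their direction in 288 refits under other settings, 69 of which lost the call, and the number past the 1.5-fold limit was 0 under every setting. DESeq2 called 19 (29.1% of all genes), DESeq2's size factors 18 (30.6%), upper-quartile factors 21 (30.6%), no filter 18 (15.9%) and a minimum of 10 counts in every library 22 of 35 (33%). With library totals 14 were called (32.8% of all genes), 10 lower and 4 higher, and the median of all genes then rose to 0.0521. On log2(FPKM + 1) 2 were called (1 lower, 1 higher), against 4.68% of all genes. On log2(FPKM + 0.1) 2 were called (1 and 1), against 5.13% of all genes. With a mean FPKM of at least 1, 4 of 35 were called (3 and 1), against 24.7% of all genes. The cause of these lower counts was not tested. Leaving out 1 library gave 15 to 20 calls, 13 to 19 lower and 1 to 3 higher, against 23.4% to 27.5% of all genes called. A replicate block gave 15 calls (13 lower, 2 higher), against 30.4% of all genes, without HNRNPA1, HNRNPA3 and SRSF2. Whether the replicate numbers pair the samples is not known. Correlations of same-numbered deviations were 0.232, −0.0948 and 0.0804, which cannot settle it with 3 libraries per group. Not every library correlated best with its own number.

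Signs changed only for genes that were not called. HNRNPUL2 went to −0.0042 with upper-quartile factors, −0.0014 without a filter, −0.0048 with at least 10 counts, and −0.0410 to 0.0385 with 1 library left out. Library totals gave 0.0040 for HNRNPR, 0.0463 for SRSF8, 0.0080 for HNRNPLL, 0.0373 for SRSF11 and 0.0258 for HNRNPUL1. On log2(FPKM + 1), with or without the minimum, SRSF8 had 0.0359, HNRNPLL 0.0020, SRSF11 0.0266 and HNRNPUL1 0.0185, and with 0.1 they had 0.0390, 0.0025, 0.0280 and 0.0190. With 1 library left out SRSF8 ran from −0.0398 to 0.0340 and SRSF11 from −0.0620 to 0.0404. The log2 ratios then shifted by −0.0742 to 0.0166 for HNRNPUL1/HNRNPUL2, −0.0414 to 0.0099 for HNRNPF/HNRNPH3, −0.0157 to 0.0508 for SRSF4/SRSF5 and −0.0123 to 0.0192 for HNRNPA1/HNRNPA3. Counting the reads of overlapping rows together was chosen after seeing the data and gave −0.0477 for HNRNPUL2.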
